A study of Bos taurus with 9 samples.

Results

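In the RAJ (recto-anal junction) transcriptome of beef steers, 10 genes taken as fibroblast markers were followed. They code for collagens, proteoglycans and glycoproteins of the matrix and for the receptor PDGFRA. Bulk tissue does not show which cells their reads came from. The genes were given by name as COL1A1, COL1A2, COL6A1, COL6A3, DCN, LUM, DPT, FBLN1, MFAP5 and PDGFRA, and each was matched to 1 Ensembl identifier among the 24616 of the deposited table. All 10 were measured in all 9 libraries, and all 10 passed the filter on low values, so no gene was lost. The lowest of the 90 values rested on 116 reads.

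RNA was sequenced from whole frozen rectal tissue of 5 super-shedders (SS) of E. coli O157, that is steers whose feces held high numbers of this bacterium when they were chosen, and of 4 pen-mates negative for it (NS). SS were chosen days before slaughter, when the tissue was taken, and not all of them still shed at that level by then. All animals were British x Continental feedlot steers on a barley-based finishing diet, and the sources name no genotype or treatment that differed between the groups. Their ages were not given in the sources used here. The tissue was a powder of the whole biopsy taken just above the RAJ, with mucosa and any underlying muscle together, and there was 1 library per steer. Steers are named by the numbers in their labels, NS 108, 152, 165 and 242 and SS 274, 287, 294, 299 and 310.

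Values are CPM as the authors deposited them, the reads on a gene as a share of all reads counted on genes in that library, scaled to 1 fixed total. Library totals ran from 5412523 reads in SS 274 to 12278503 in NS 108. In the paper SS 274 also had the lowest share of reads mapped to the genome of all libraries. The part of that in its values was not tested. The libraries differed widely in tissue make-up. The 13 identified genes of a list of 16 colonic epithelial markers summed to 67.9 CPM in SS 294, 746 CPM in NS 242 and 952 CPM in SS 274, and to 2921 to 7890.1 CPM in the other 6 steers. The 10 identified genes of a list of 11 smooth muscle markers summed to 654 CPM in SS 274 and to 55783 CPM in SS 294. In bulk tissue, fewer cells of a type and less RNA per cell cannot be told apart, and because the CPM of a library share 1 total, a fall of one tissue raises the CPM of the others.

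Collagen I, the main fibrillar collagen of connective tissue, is a triple helix of a pair of COL1A1 chains with a single COL1A2 chain, and fibroblasts secrete it as a precursor that assembles into fibrils. Decorin (DCN) and lumican (LUM) are small leucine-rich proteoglycans that bind those fibrils and regulate their spacing, and collagen VI forms beaded microfibrils that link cells to the surrounding matrix. In the gut wall such fibroblasts lie in the lamina propria, in the submucosa, between muscle bundles and around vessels.

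Taken over the 9 steers, the 10 genes stood highest in SS 274 and SS 294 and lowest in SS 287, so the widest differences lay inside the SS group. The 10 genes together took 2.63% of the reads in SS 274 and 1.93% in SS 294. They took 0.238% in SS 287, 0.417% in SS 310 and 0.548% in SS 299, against 0.397% to 0.84% in the NS steers. SS 274 had the highest value for 7 of the 10 genes and SS 294 for the other 3, while SS 287 had the lowest for 8. The pair SS 274 and SS 294 held the 2 highest values for 8 of the 10 genes, for 24 of 37 other matrix genes and for 1303 of all 15410 genes tested, which is 8.46%.

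**Figure D1:**
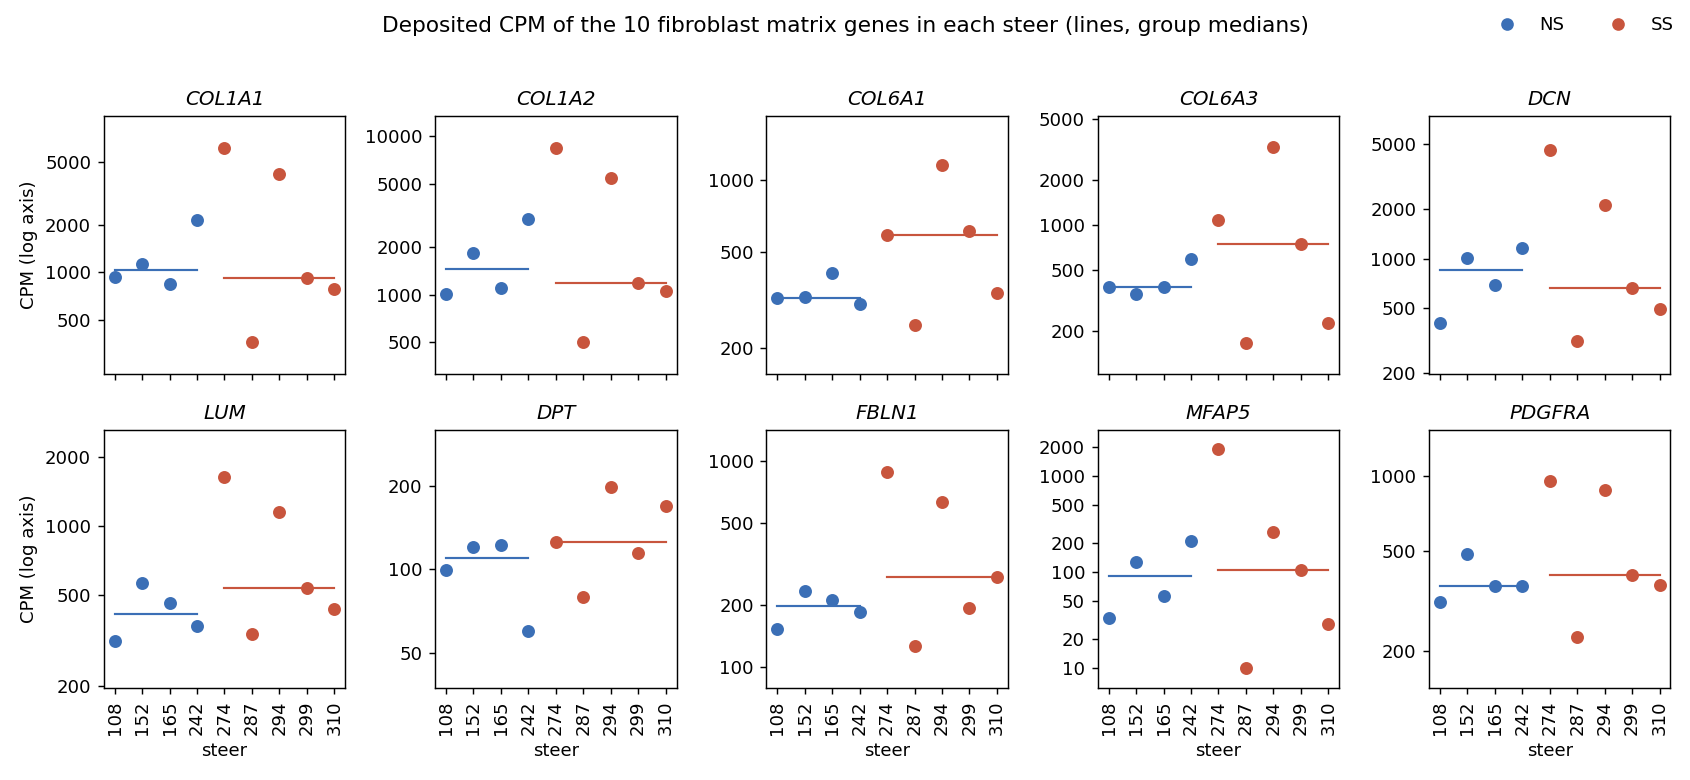
Deposited CPM (vertical log axes, 1 scale per gene) of the 10 genes in each of the 9 steers (horizontal axes), NS in blue and SS in red, with a line at each group's median. In 8 of the 10 panels the 2 highest points are SS 274 and SS 294, and in every panel the SS points overlap the NS points.

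The fibrillar collagen chains came first. COL1A1 (ENSBTAG00000013103), the alpha 1 chain of collagen I, was at 940.3, 1137, 843 and 2145 CPM in NS 108, 152, 165 and 242, and at 6109.7, 364, 4185, 923 and 784 CPM in SS 274, 287, 294, 299 and 310. COL1A2 (ENSBTAG00000013472), the alpha 2 chain, was at 1005, 1821, 1099.7 and 3009 CPM in the same NS steers and at 8354, 505, 5436, 1181 and 1059 CPM in the same SS steers. For both chains SS 274 was the highest, SS 294 the next and NS 242 the third, SS 287 was the lowest, and the other 3 NS steers, SS 299 and SS 310 lay close together between them. The highest library was 16.8 times the lowest for COL1A1 and 16.5 times for COL1A2.

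The chain ratio stayed nearly constant over that range. COL1A1 over COL1A2 was 0.935, 0.625, 0.767 and 0.713 in the 4 NS steers and 0.731, 0.72, 0.77, 0.782 and 0.74 in the 5 SS steers. The steer with the least collagen I and the steer with the most thus had ratios of 0.72 and 0.731, and the SS ratios spanned less than the NS ratios. The NS mean was 0.76 ± 0.131 (SD, n = 4) and the SS mean 0.749 ± 0.026 (SD, n = 5), and the log2 ratio differed by -0.01 (exact permutation test, two-sided, p = 0.937).

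As a share of the collagen I reads, COL1A1 took 48.3% in NS 108 (95% exact binomial interval 47.7% to 49%) and 38.4% in NS 152 (37.9% to 39%). In the other 7 steers it took 41.6% to 43.9%, so NS 108 and NS 152 stood off from them by more than the counting error, which is all that these intervals cover. The SD of the log2 ratio over the 9 steers was 0.153. Of the other 15409 genes tested, 0 had a more constant log2 ratio to COL1A1 than COL1A2 had, and 0 had a higher correlation with it over the 9 steers (r = 0.99), which is given as a description of these libraries.

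Collagen VI behaved otherwise. COL6A1 (ENSBTAG00000011802), its alpha 1 chain, was at 321, 326, 408 and 304 CPM in NS 108, 152, 165 and 242, and at 589.7, 249, 1157, 615 and 337 CPM in SS 274, 287, 294, 299 and 310. COL6A3 (ENSBTAG00000030190), the long alpha 3 chain, was at 391, 351, 387 and 596 CPM in those NS steers and at 1082, 165, 3283, 751 and 225 CPM in those SS steers. SS 294, not SS 274, was the highest for both chains, and SS 274, SS 294 and SS 299 lay above all NS steers while SS 287 lay below them, with SS 310 below them for COL6A3. The range was 4.65-fold for COL6A1 and 19.9-fold for COL6A3.

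Their ratio was not constant. COL6A1 over COL6A3 was 0.821, 0.929, 1.05 and 0.511 in the NS steers and 0.545, 1.5, 0.352, 0.819 and 1.5 in the SS steers, in the order above. It was lowest in SS 294, NS 242 and SS 274, the 3 steers with the least epithelium, and highest in SS 287 and SS 310, the 2 with the most. The SD of its log2 value over the 9 steers was 0.705, and 183 of the other 15409 genes had a higher correlation with COL6A1 than COL6A3 had (r = 0.92). The NS mean of the ratio was 0.83 ± 0.23 (SD, n = 4) and the SS mean 0.944 ± 0.535 (SD, n = 5), a log2 difference of 0.02 (exact permutation p = 1).

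The small proteoglycans lie next to each other on chromosome 5 of the ARS-UCD2.0 assembly, where RefSeq places LUM directly before DCN. DCN (ENSBTAG00000003505) was at 404, 1009, 688 and 1158 CPM in NS 108, 152, 165 and 242, and at 4628, 316, 2137, 665 and 494 CPM in SS 274, 287, 294, 299 and 310. LUM (ENSBTAG00000001745) was at 313, 562, 458 and 365 CPM in those NS steers and at 1642, 337, 1151, 533 and 432 CPM in those SS steers. SS 274 and SS 294 were the 2 highest for both, DCN in SS 287 lay below all NS steers, and LUM was lowest in NS 108.

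DCN ranged over 14.7-fold and LUM over 5.25-fold, so their ratio moved. DCN over LUM was 1.29, 1.8, 1.5 and 3.18 in the NS steers and 2.82, 0.936, 1.86, 1.25 and 1.15 in the SS steers, highest in NS 242 and SS 274 and lowest in SS 287. The NS mean was 1.94 ± 0.849 (SD, n = 4) and the SS mean 1.6 ± 0.762 (SD, n = 5), a log2 difference of -0.31 (exact permutation p = 0.429). It was -0.04 without NS 242, -0.14 without SS 287, -0.47 without NS 108 and -0.54 without SS 274. DCN followed collagen I closely, with COL1A2 over DCN between 1.6 in NS 165 and 2.6 in NS 242.

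**Figure D2:**
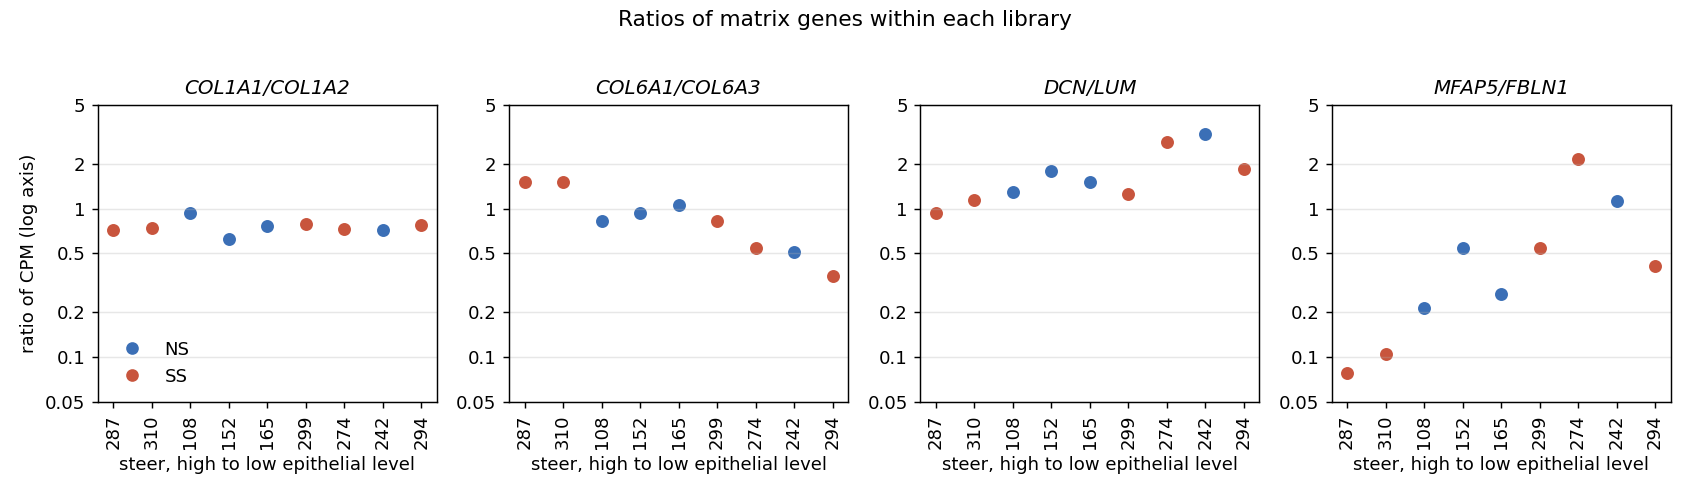
Ratio of CPM within each library (vertical log axes, the same for all panels) for COL1A1/COL1A2, COL6A1/COL6A3, DCN/LUM and MFAP5/FBLN1, with the steers ordered from the highest to the lowest epithelial level, NS in blue and SS in red. The collagen I chain ratio stays between 0.625 and 0.935, while COL6A1/COL6A3 falls from 1.5 to 0.352 along the order and MFAP5/FBLN1 spans 27.8-fold.

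Among the microfibrillar and linking proteins, MFAP5 (ENSBTAG00000000310), a glycoprotein bound to fibrillin microfibrils, had the widest range of the 10 genes. It was at 32.7, 126, 55.6 and 209 CPM in NS 108, 152, 165 and 242, and at 1902, 9.82, 259.9, 105 and 28.5 CPM in SS 274, 287, 294, 299 and 310. SS 274 stood far above every other steer, SS 287 stood below them all, and the highest was 194 times the lowest. The SD of its log2 values over the 9 steers was 2.19, larger than for 98.8% of the genes tested, against 1.08 for the median of the 10 genes and 0.5 for the median of all genes.

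FBLN1 (ENSBTAG00000012088), fibulin 1, a calcium-binding glycoprotein of elastic fibers and basement membranes, was at 153, 234, 210.0 and 185 CPM in the NS steers and at 879.6, 126, 629.6, 194 and 272 CPM in the SS steers. SS 274, SS 294 and SS 310 were above all NS steers and SS 287 below them, with SS 299 among the NS steers. MFAP5 over FBLN1 was 0.214, 0.539, 0.265 and 1.13 in NS and 2.16, 0.078, 0.413, 0.541 and 0.105 in SS. The groups overlapped between 0.214 and 1.13, the range of the NS steers, with SS 287 and SS 310 below it and SS 274 above it, and a log2 difference of -0.37 (exact permutation p = 0.73).

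DPT (ENSBTAG00000021211), dermatopontin, which binds decorin and takes part in fibril formation, varied least. It was at 99.4, 120.3, 122 and 60 CPM in NS 108, 152, 165 and 242, and at 126, 79.6, 198, 114 and 168 CPM in SS 274, 287, 294, 299 and 310. SS 294 and SS 310 were the 2 highest and NS 242 the lowest, an order found for no other of the 10 genes. Its correlation with the mean of the other 9 genes over the 9 steers was 0.47, against 0.81 to 0.99 for each of the others, and DPT over DCN fell to 0.027 in SS 274 and 0.052 in NS 242 from 0.341 in SS 310.

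PDGFRA (ENSBTAG00000007173), the receptor for platelet-derived growth factor by which such fibroblasts are recognised, was at 312, 489, 364 and 365 CPM in the NS steers and at 953, 228, 880.5, 402 and 368 CPM in the SS steers. SS 274 and SS 294 were again above all NS steers and SS 287 below them, over a range of 4.18-fold. It had the highest correlation with the mean of the other 9 genes (r = 0.99). PDGFRA over COL1A2 was 0.311, 0.269, 0.331 and 0.121 in NS and 0.114, 0.452, 0.162, 0.34 and 0.347 in SS, so the steers with the most collagen I had the least receptor RNA per collagen RNA.

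The question of the study's design was how SS tissue differed from NS tissue. None of the 10 genes passed the test between the groups. The test was limma on log2(CPM + 0.5) over the 15410 genes that reached 0.5 CPM in 4 or more steers. A gene was called where its limma adjusted p was under 0.05 and its log2 fold change was beyond 1 in either direction. Of the 10 genes 0 were called, and 0% of all genes tested were called. At an unadjusted p below 0.05 there were 0 of the 10 genes and 3.96% of all genes, 55 of those genes higher in SS and 555 lower. In 0 of the 10 genes were the SS and NS steers without overlap, against 2.26% of all genes.

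The mean log2 level of each of the 10 genes was higher in SS, by 0.31 for COL1A1 to 0.75 for FBLN1, with a median of 0.42 against -0.13 over all genes tested. Scaling by median-of-ratios size factors moved the median of all genes by 0.14, to 0.01, and left 10 of 10 genes on the SS side. With the epithelial level, defined with the relations to epithelium, as a covariate, COL1A1, COL1A2, COL6A3, DCN and MFAP5 turned to the NS side, at -0.24, -0.23, -0.05, -0.04 and -0.37. With sample weights all 10 differences were smaller, from 0.13 for DCN to 0.4 for COL6A3, with LUM at 0.37 and FBLN1 at 0.36. LUM had the lowest p, with a log2 difference of 0.72 (SE 0.46, 95% interval -0.32 to 1.76, limma adjusted p = 0.928, exact permutation p = 0.254). COL6A1 differed by 0.6 (SE 0.4, interval -0.3 to 1.5, adjusted p = 0.928). The interval of MFAP5, from -2.63 to 3.39, was the widest. With 126 divisions of 9 steers into these group sizes, the smallest p that the exact permutation test can give is 0.0159.

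The count models gave larger differences. With edgeR's quasi-likelihood test on the recovered reads the log2 difference was 0.56 for DPT to 2.34 for MFAP5, with 0 of 10 genes at an unadjusted p below 0.05, beside 3.87% of all genes. DESeq2 gave 5 of 10 genes an unadjusted p below 0.05, all higher in SS. Of all genes 5.82% had such a p in either direction and 3.23% with higher values in SS. The DESeq2 adjusted p was 0.824 to 0.828 for these 5 and 0.852 to 0.855 for the other 5. DESeq2 called 0 of the 10 genes and 0.123% of all genes.

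The values moved with single steers. Without SS 287, the lowest steer for 8 of the genes, all 10 differences were larger, as 0.81 for COL1A1, 1.06 for COL6A3, 1.09 for FBLN1 and 1.23 for MFAP5. Leaving out SS 274 and SS 294, the steers with the 2 highest values for 8 of the genes, lowers the SS means by construction. Without both, a choice made after the values were seen, 7 of the 10 genes were lower in SS, beside 61% of all genes tested. Their log2 differences were -0.88 for COL1A1, -0.87 for COL1A2, -0.47 for COL6A3, -0.68 for DCN, -1.41 for MFAP5, -0.22 for PDGFRA and -0.04 for FBLN1. COL6A1, LUM and DPT stayed above 0, at 0.14, 0.04 and 0.25, down from 0.6, 0.72 and 0.43. The median of the 10 genes was then -0.35, against -0.08 over all genes. Without SS 274 alone COL1A1, COL1A2, DCN and MFAP5 turned, to -0.2, -0.2, -0.14 and -0.65. Without SS 294 alone COL1A1, COL1A2 and COL6A3 turned, to -0.07, -0.05 and -0.02. Without NS 108 MFAP5 turned. With 1 steer left out LUM ran from 0.4 to 0.97, COL6A1 from 0.31 to 0.86, FBLN1 from 0.4 to 1.09, DPT from 0.2 to 0.61 and PDGFRA from 0.14 to 0.65, the lowest for LUM, FBLN1 and PDGFRA without SS 274, for COL6A1 without SS 294 and for DPT without NS 242.

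**Figure D3:**
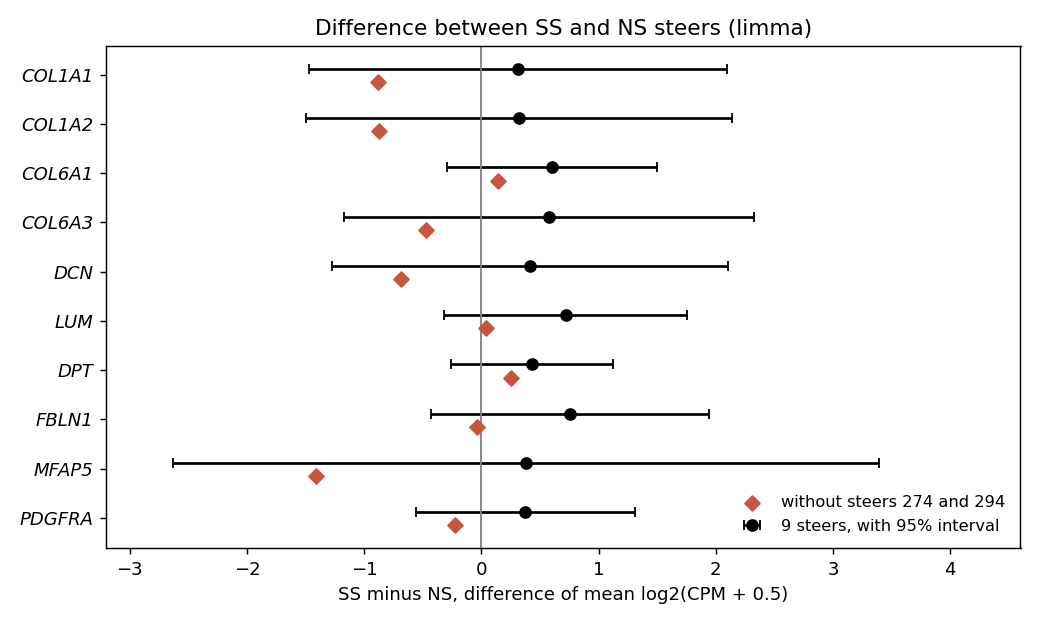
Difference between SS and NS means of log2(CPM + 0.5) (horizontal axis) for the 10 genes, from limma over 9 steers with its 95% interval (black), and from the 7 steers other than SS 274 and SS 294 (red diamonds). The black points all lie above 0 with intervals that include 0, and 7 of the 10 diamonds, which leave out the 2 highest steers of most genes, lie below 0. Without those 2 steers 61% of all genes tested were lower in SS.

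SS 274 and SS 294 were high in matrix RNA but differed in which matrix genes rose most. Against the NS median, MFAP5 was 20.9-fold in SS 274 and 2.86-fold in SS 294, DCN 5.45-fold and 2.52-fold, and COL1A1 5.88-fold and 4.03-fold. COL6A3 was the other way, 2.78-fold in SS 274 and 8.44-fold in SS 294, and so was COL6A1, at 1.82-fold and 3.58-fold. PDGFRA was at 2.61-fold and 2.42-fold in the 2 steers, and DPT at 1.15-fold and 1.8-fold. These are values of single libraries and carry no test.

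Markers of other cell types differed between these 2 libraries as well. Of 10 smooth muscle markers 9 were at their lowest in SS 274, the exception being CALD1, lowest in SS 287, and 10 were at their highest in SS 294, with MYH11, smooth muscle myosin, at 89.1 and 28258 CPM. The 2 identified adipocyte genes of a list of 6, FABP4 and LPL, were highest of all steers in SS 274, at 1219 and 2124 CPM, and stood at 91.7 and 312 CPM in SS 294. NS 242, the NS steer with the least epithelium and the most collagen I, had the second highest values of both adipocyte genes, 295 and 557 CPM. The 4 identified macrophage genes of a list of 7 summed to 1113 CPM in SS 274 and 854 CPM in NS 242, against 209.5 to 330.2 CPM in the other 7 steers. PECAM1, the 1 identified endothelial marker of 8, was highest in the same 2 steers and lowest in SS 287, with 348 CPM in SS 294, 273 CPM in SS 274, 49.5 CPM in SS 287 and 106 to 205 CPM in the other 6 steers. RGS5, the 1 identified pericyte marker of 4, was at 66.5 CPM in SS 274 and 376 CPM in SS 294, and CD3G, the 1 identified T cell marker of 5, at 14.4 and 2.67 CPM. The 5 B cell markers summed to 38.8 and 4.14 CPM there, to 20.1 to 35.6 CPM in the other 3 SS steers and to 65 to 564 CPM in the NS steers. The sums did not overlap between the groups, while CD22 and CD79A taken singly overlapped, beside 2.26% of all genes without overlap. With the smooth muscle level, the mean log2(CPM + 0.5) of the 10 muscle markers, as a covariate, the log2 differences (SS minus NS) of the 10 matrix genes were 0.28 to 0.74. The part of the other cell types of this paragraph in the matrix levels was not tested, and markers of squamous epithelium, mesothelium, and enteric neurons and glia were not analysed here.

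A list of 73 other matrix and fibroblast genes had 37 identified genes, and COL3A1, COL6A2 and biglycan (BGN) were not analysed here. Of the 37, 13 were over 1.5-fold higher in SS 274 than in SS 294, 7 over 1.5-fold lower and 17 within 1.5-fold, and of the 10 genes 3, 3 and 4. Over all 15410 genes tested these counts were 3988, 2644 and 8778. Named after their values were seen, PI16, a gene known from adventitial fibroblasts, was at 1200.4 CPM in SS 274 and 146 CPM in SS 294. FBN1, fibrillin 1 of the microfibrils that MFAP5 binds, was at 14551 and 2858 CPM. The small proteoglycan OGN, osteoglycin, was at 3193 and 438 CPM. These 3 genes were between 14.9-fold and 24-fold above the NS median in SS 274.

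Other matrix genes of the list, also named after their values were seen, were low in SS 274. POSTN, periostin, was at 26.6 CPM there and at 864 CPM in SS 294, with 89.5 to 574 CPM in NS. SPARCL1, a collagen-binding glycoprotein, was at 224 and 3123 CPM, with 382 to 1604 CPM in NS. For both genes and for THBS1 SS 274 was the lowest of the 9 steers and NS 242 the next. Against the NS median, POSTN was 0.075-fold, SPARCL1 0.18-fold, THBS4 0.31-fold, THBS1 0.45-fold and P4HB 0.49-fold in SS 274. The other genes of the list were at 0.99-fold to 24-fold there.

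**Figure D4:**
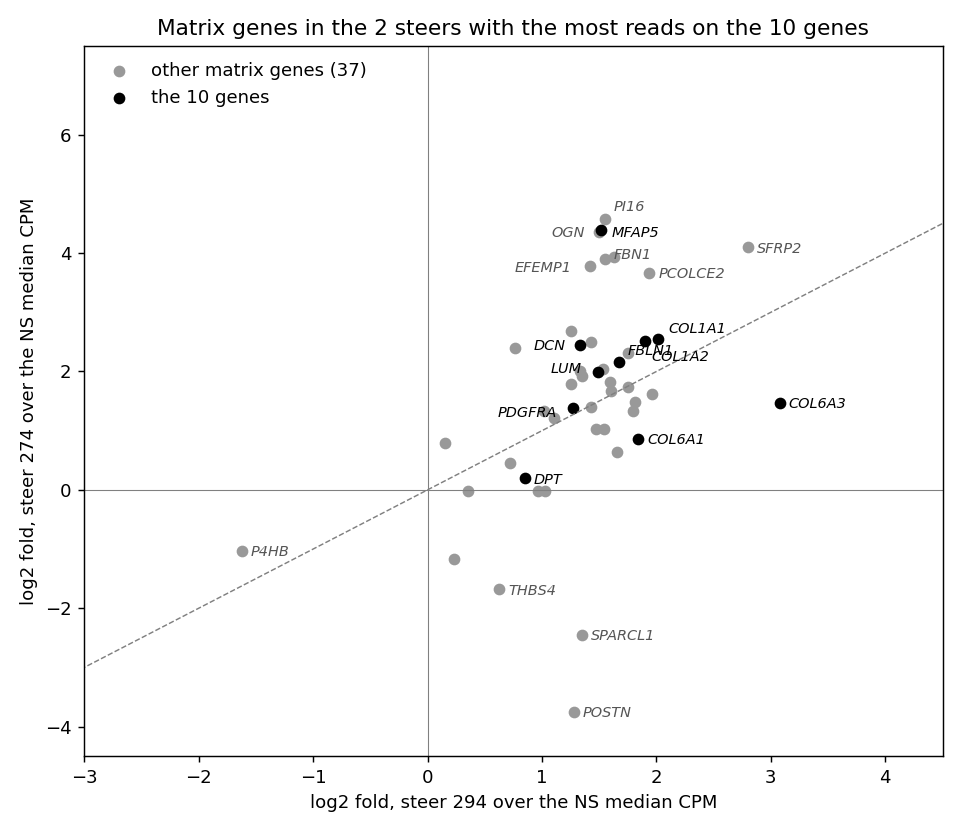
Log2 fold of CPM over the NS median in SS 274 (vertical axis) against SS 294 (horizontal axis) for the 10 genes (black) and 37 other matrix genes (grey), with a dashed line where both are equal. MFAP5 lies far above the line beside PI16 and OGN, COL6A3 and COL6A1 lie below it, and POSTN and SPARCL1 lie below the NS median in SS 274 and above it in SS 294.

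Between the groups, 0 of the 37 other matrix genes were called by limma and 0 had an unadjusted p below 0.05, against 2 with edgeR and 7 with DESeq2. Over all genes tested the shares at that p were 3.96%, 3.87% and 5.82%. In 32 the mean was higher in SS and in 5 lower, with a median log2 difference of 0.46, while 35.2% of all genes tested were higher in SS. Without SS 274 and SS 294 27 of 37 were lower, with a median of -0.18, beside 61% of all genes. The 5 with the largest absolute difference were SFRP2, a secreted Wnt modulator (1.04), the basement membrane collagen chains COL4A2 (1.03, limma adjusted p = 0.928) and COL4A1 (0.93), tenascin XB (TNXB, 0.85) and FBN1 (0.79). COL4A2 had the lowest unadjusted p of the list, 0.0505, with 66.7 to 183 CPM in NS and 112 to 463 CPM in SS. Without SS 274 and SS 294 the log2 differences of COL4A1 and COL4A2 fell to 0.27 and 0.49, whereas SFRP2, TNXB and FBN1 turned. Without SS 274 alone SFRP2, TNXB and FBN1 fell to 0.21, 0.43 and 0.07.

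By role, the median log2 difference was 0.49 for 5 basement membrane genes, 0.44 for 6 genes of collagen processing, 0.47 for 5 genes of matrix turnover, 0.25 for 7 glycoproteins and 0.25 for 8 other fibroblast genes. Without SS 274 and SS 294 these medians were 0.2, -0.06, -0.26, -0.08 and -0.75, with 5 of 5 turnover genes and 8 of 8 other fibroblast genes lower in SS. The 4 roles with 1 or 2 genes had medians of 0.53 to 0.78, and of -1.19 to 0.64 without both steers. P4HB, a subunit of the enzyme that hydroxylates collagen prolines, was the one with the lowest difference, -0.32, and THY1, S100A4, THBS1 and POSTN were the others below 0. The gene lists hold genes that muscle, endothelium and epithelium also use.

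How each gene followed the loss of epithelium was read across the 9 steers. The epithelial level is the mean log2(CPM + 0.5) of the 13 identified epithelial markers, and was 2.17 in SS 294, 5.49 in NS 242, 5.94 in SS 274, 7.23 in SS 299 and 8.39 to 8.81 in the other 5. Squamous epithelium, which also lines the anal side of the junction, has no marker in it. All 10 genes were negatively correlated with it, with r from -0.93 for COL6A3 to -0.28 for DPT and a median of -0.72, while 46.7% of all genes tested were negatively correlated. An r below -0.8 was found for 2 of the 10 genes, COL6A3 and COL6A1, and for 4.75% of 15397 genes. In total 20 relations were tested, 10 with epithelium and 10 with smooth muscle, with exact permutation tests over all pairings and Benjamini-Hochberg adjustment.

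COL6A3 was the one gene past the threshold by Pearson's r (r = -0.93, exact permutation p = 0.00169, adjusted p = 0.0338, and rho = -0.9, p = 0.00203). With median-of-ratios scaling its adjusted p was 0.0709, and with EPCAM alone as the epithelial marker 0.0788 (exact permutation tests), both above the threshold. Its log2 level fell by 0.54 for each log2 unit of epithelium. Without SS 294 and NS 242, the 2 steers farthest from the median level, r was -0.91 (exact permutation p = 0.00159, adjusted p = 0.0278). Leaving out 1 steer at a time gave r between -0.95 and -0.81, the latter without SS 294, and the adjusted p rose above the threshold without any one of 7 steers, to 0.186 without SS 294 and to 0.0625 to 0.0813 without NS 108, NS 152, NS 165, SS 287, SS 299 or SS 310.

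By rank, 5 genes passed, with rho of -0.82 or lower, which 8.65% of 15397 genes also had. Spearman's rho was -0.9 for MFAP5 and -0.88 for COL1A2 (exact permutation p = 0.00203 and p = 0.00308, adjusted p = 0.0203 and 0.0205). It was -0.87 for DCN (p = 0.00451, adjusted p = 0.0225, exact permutation test) and -0.82 for COL1A1 (p = 0.0108, adjusted p = 0.0431, exact permutation test), beside COL6A3. Their Pearson r was -0.64, -0.79, -0.71 and -0.8, with adjusted p of 0.253, 0.132, 0.205 and 0.132 in exact permutation tests. SS 274 had more of these 4 genes than SS 294, at a higher epithelial level. Without SS 294 and NS 242 the Pearson r of these 4 genes was -0.9, -0.84, -0.86 and -0.86, with adjusted p of 0.0893 to 0.143 in exact permutation tests.

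COL6A1, LUM, FBLN1, PDGFRA and DPT did not pass by either measure. Their Pearson r was -0.8, -0.65, -0.66, -0.72 and -0.28 over all 9 steers, with adjusted p of 0.14 to 0.7 in exact permutation tests. It was -0.87, -0.9, -0.8, -0.84 and -0.15 without SS 294 and NS 242, where SS 274 alone lies below an epithelial level of 7.23. With SS 294 alone left out it was -0.44, -0.49, -0.49, -0.56 and 0.42. Without SS 274 and SS 294 it was -0.2, 0.02, 0.02, -0.22 and 0.65, and that of COL1A1, COL1A2, COL6A3, DCN and MFAP5 was -0.76, -0.74, -0.72, -0.66 and -0.73. None of the 10 genes passed over these 7 steers (exact permutation tests, lowest adjusted p = 0.167). Whether the relations of the 2 sets of genes differ was not tested. NS 242, with little epithelium, had values of COL6A1, LUM, FBLN1, PDGFRA and DPT within or below those of the other NS steers, as 304 CPM of COL6A1, 365 CPM of LUM and 60 CPM of DPT show. COL1A1, COL1A2, COL6A3, DCN and MFAP5 were by contrast highest of all NS steers in NS 242.

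**Figure D5:**
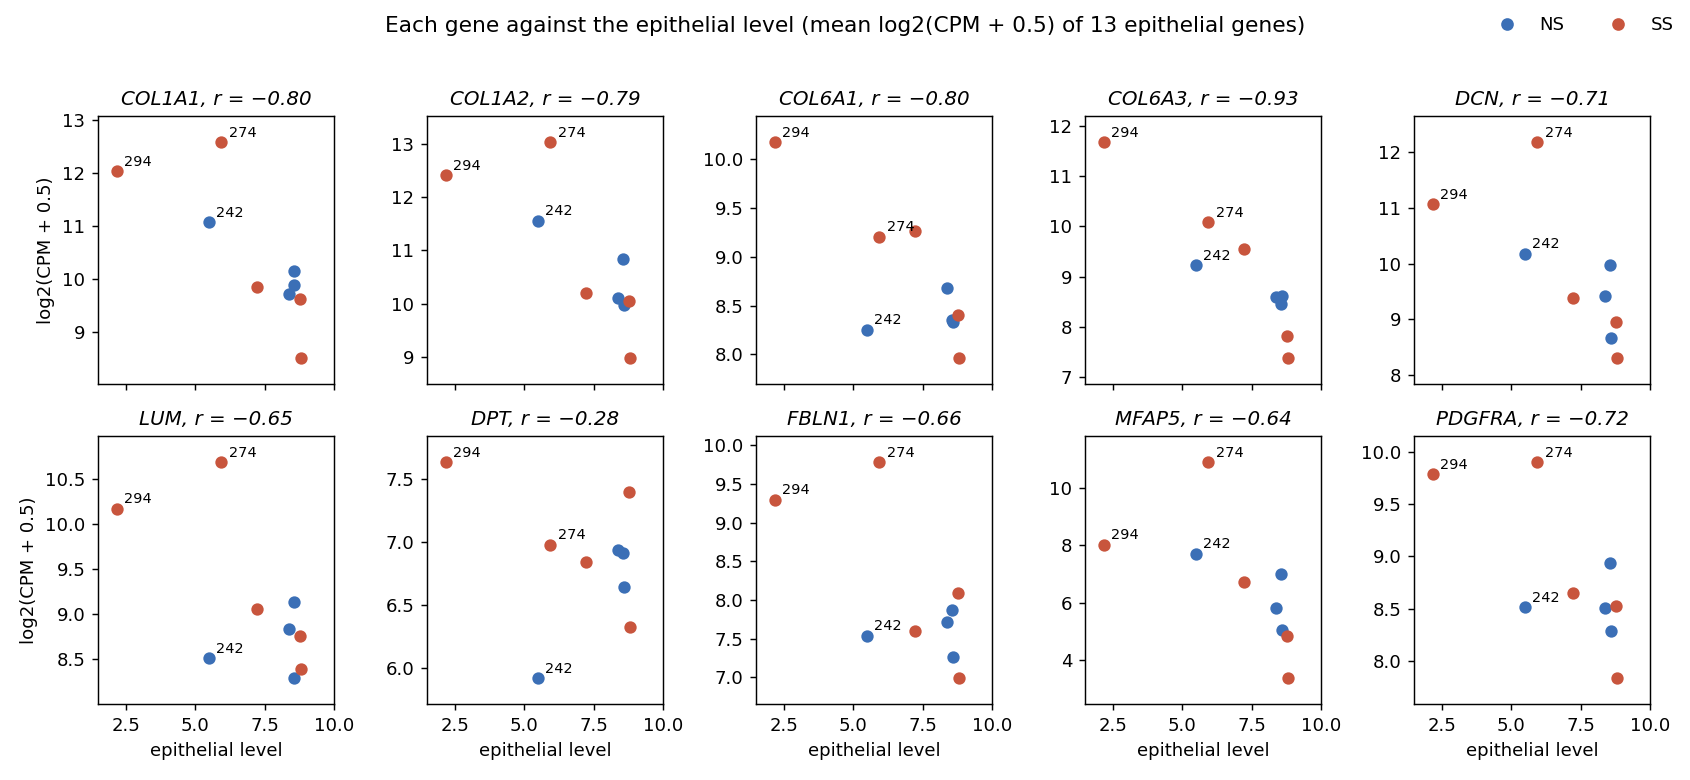
Log2(CPM + 0.5) of each of the 10 genes (vertical axes) against the epithelial level (horizontal axes, mean log2(CPM + 0.5) of 13 epithelial genes) in the 9 steers, NS in blue and SS in red, with Pearson's r in each title and SS 274, SS 294 and NS 242 marked. The r runs from -0.93 for COL6A3 to -0.28 for DPT, and NS 242 is high among NS steers for COL1A1, COL1A2, COL6A3, DCN and MFAP5 but low for DPT.

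Ratios within a library do not depend on its total. Tested after their values had been seen, 8 ratios were correlated with the epithelial level. They reuse the values of the single-gene relations and are no separate support. COL6A1 and COL6A3, for example, had slopes of -0.25 and -0.54 on that level. How often other gene pairs reach such values was not tested. COL6A1 over COL6A3 fell with the loss of epithelium (r = 0.91, exact permutation p = 0.000149, rho = 0.93, p = 0.00075). Its adjusted p was 0.00119 over the 8 ratios, r without SS 294 and NS 242 was 0.83, and leaving out 1 steer gave r between 0.89 and 0.94. COL1A1 over COL1A2 had r = -0.01 and rho = -0.07 (exact permutation p = 0.912 and p = 0.88). By rank DCN over LUM (rho = -0.83) and MFAP5 over FBLN1 (rho = -0.78) rose as epithelium fell, and DPT over DCN (rho = 0.87) and PDGFRA over COL1A2 (rho = 0.78) fell with it, with adjusted p of 0.022, 0.0276, 0.018 and 0.0276 in exact permutation tests, while their Pearson r had adjusted p of 0.122 to 0.221.

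With the smooth muscle level, the mean log2(CPM + 0.5) of 10 markers, 0 of the 10 genes passed, with Pearson r from -0.2 for MFAP5 to 0.46 for COL6A1 (exact permutation p = 0.195 for COL6A1). SS 274 had the least muscle RNA and the most RNA of 7 of the genes. Without it 4 genes passed, COL6A1 (r = 0.88, adjusted p = 0.00694), LUM (0.78, 0.0432), COL6A3 (0.78, 0.0432) and PDGFRA (0.78, 0.0434), in exact permutation tests over 8 steers. An r as high as that of PDGFRA was found for 8.62% of 15400 genes over these 8 steers. With the epithelial level, leaving out SS 274 brought the genes past the threshold by Pearson's r from 1 to 5, the same 5 as by rank. An r as low as that of the weakest of these, -0.74, was then found for 9 of the 10 genes and 11.9% of all genes. The epithelial and smooth muscle levels were themselves weakly related (r = -0.24, exact permutation p = 0.546). Both marker lists and the 10 genes share each library's total, and the part of that in the relations was not tested.

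The genes whose pattern was most like that of the 10 were found by Pearson's r between each named gene's log2(CPM + 0.5) and the mean of the standardised log2 values of the 10, over 9 steers and 2040 candidates. The 10 highest were TMX4 (r = 0.99), SFRP2, TIMP2, PRNP, SERPINH1, SNX9, SPARC, AKAP12, HTRA1 and LAMC1 (0.97). SERPINH1 is the collagen chaperone of the endoplasmic reticulum, TIMP2 an inhibitor of matrix metalloproteinases, SPARC a collagen-binding glycoprotein and LAMC1 a laminin chain. SPARC was at 727, 1387, 972 and 1301 CPM in the NS steers and at 4684, 339, 3282, 953 and 639 CPM in the SS steers, highest in SS 274 and SS 294 and lowest in SS 287 as most of the 10 were. Of these 10 genes 5 were also on the list of other matrix genes, whose 37 identified genes were all among the 2040 candidates. Genes without a symbol, most of the 15410 tested, were no candidates.

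The 5 with the lowest r were USP1, a deubiquitinase (-0.96), TUFM, a mitochondrial elongation factor, HIST1H3I, a histone of a multigene family whose reads can be split between copies, UBE2J1, a ubiquitin-conjugating enzyme, and SPCS2, a signal peptidase subunit (-0.95). UBE2J1 was at 23.3 and 22.2 CPM in SS 274 and SS 294 and at 59.4 to 79.4 CPM in the other 7 steers.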

How the data were processed

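Total RNA of whole RAJ tissue was depleted of rRNA and made into stranded libraries, 1 per steer. The authors deposited CPM per Ensembl gene. Their processing notes name TopHat2, HTSeq, edgeR and UMD3.1, with no versions or order. Every deposited CPM was a whole multiple of 1 read (100% within 0.01 reads), so read counts were recovered. The authors' own tests used Cufflinks values, not used here.

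The members and lists were chosen with earlier results of these data known. Symbols came from the study's supplementary tables for 2052 identifiers. The main test was limma 3.58.1 with an intensity trend (R 4.3.3) on log2(CPM + 0.5), with Benjamini-Hochberg adjustment, tested on simulated data. This scale understates the change of low genes. edgeR 4.0.16 and DESeq2 1.42.0 on recovered counts were alternatives, beside other pseudocounts, filters, scalings, weights and covariates, and each steer left out. Permutation tests were two-sided and exact (Python 3.11.15, scipy 1.17.1). Named genes were the members, the 5 largest differences among other matrix genes, the 10 genes most like and 5 least like the members, and markers. PI16, OGN, POSTN, SPARCL1, THBS1, THBS4, P4HB, THY1 and S100A4 were added to these after their values were seen. Gene lengths were not used, so levels of different genes were not ranked. Each steer was 1 replicate.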

Additional observations from a re-analysis of the deposited data

How the results depend on the processing

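Under all alternative settings 0 of the 10 members and 0 of the 37 other matrix genes were called, and 0 of the 8 ratios without a pseudocount, on the linear scale and with steers left out, the alternatives run for them. Over all genes limma called 0 of 15410, 2 with sample weights, 19 with DESeq2 and 0 to 1 with 1 steer left out. The directions were not stable. With the epithelial level as a covariate the log2 differences (SS minus NS) of COL1A1, COL1A2, COL6A3, DCN and MFAP5 turned to -0.24, -0.23, -0.049, -0.042 and -0.37. Without SS 274 and SS 294, chosen after seeing the data, those of COL1A1, COL1A2, COL6A3, DCN, FBLN1, MFAP5 and PDGFRA were -0.88, -0.87, -0.47, -0.68, -0.038, -1.41 and -0.22, and those of SFRP2, TNXB and FBN1 -0.75, -0.076 and -0.36. With 1 steer left out they ran from -0.202 to 0.81 for COL1A1, -0.205 to 0.81 for COL1A2, -0.016 to 1.06 for COL6A3, -0.14 to 0.83 for DCN and -0.65 to 1.23 for MFAP5. The log2 ratio differences then ran from -0.095 to 0.099 for COL1A1/COL1A2, -0.201 to 0.32 for COL6A1/COL6A3, -0.54 to -0.038 for DCN/LUM, -0.59 to -0.015 for COL1A2/COL6A3, -0.22 to 0.013 for COL1A2/DCN, -1.04 to 0.14 for MFAP5/FBLN1, -0.27 to 0.34 for PDGFRA/COL1A2 and -0.42 to 0.58 for DPT/DCN. On the linear scale MFAP5/FBLN1 differed by 0.12. The cause of these turns was not tested.

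The number of members past the threshold with the epithelial level, 1 by Pearson's r, was 5 by Spearman's rho, 0 with median-of-ratios scaling, 0 with EPCAM alone, 0 without SS 274 and SS 294 and 0 to 5 with 1 steer left out, the 5 without SS 274. Without SS 274 and SS 294 the r of LUM, DPT and FBLN1 turned to 0.025, 0.65 and 0.017, and with 1 steer left out that of DPT ran from -0.65 to 0.42. With the smooth muscle level 0 members passed, 1 without the 2 steers farthest from the median and 0 to 4 with 1 steer left out. There the values for COL1A1, COL1A2, DCN, LUM, FBLN1 and MFAP5 turned to 0.017, 0.083, 0.067, 0.25, 0.13 and 0.1 by Spearman's rho, and to 0.199, 0.13, 0.26, 0.64, 0.36 and 0.41 without those 2 steers. With 1 steer left out they ran from -0.502 to 0.56, -0.52 to 0.51, -0.52 to 0.58, -0.48 to 0.78, -0.56 to 0.67 and -0.498 to 0.59, and for COL6A3 and PDGFRA from -0.11 to 0.78 and -0.39 to 0.78. PDGFRA turned to -0.079 with MYH11 alone. No paired analysis was possible because the steers are different animals and their replicate numbers, given in accession order, carry no pairing. The 9 steers limit the precision, which the intervals show.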
